A study of Homo sapiens with 6 samples.

Results

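PTTG1IP, PTTG1 and ESPL1 were followed in gastric cancer cells with forced HOXD9 expression. They made up 3 of the 12385 genes of the gene table, and their 14 transcripts were among the 40304 of the transcript table. PTTG1IP was chosen by its measured FPKM values in these same libraries, where its level in LV-HOXD9 cells was among the lowest relative to LV-Vector cells, so its values are given as a description without a test. PTTG1 and ESPL1 were taken for the proteins they encode, and their values were tested.

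The cells were MKN-74, an established epithelial-like gastric cancer line. LV-HOXD9 cells (genotype label "HOXD9 overexpressed") carried a lentivirus with HOXD9, a homeobox transcription factor, and LV-Vector cells (genotype label WT) carried the lentivirus without it. In the methods of the study the lentiviral vector has a Ubi promoter, a FLAG tag, a green fluorescent protein and a puromycin resistance gene. Both kinds of cells were kept under puromycin at 10 µg/ml for over 14 days and were used as stable lines, and total RNA of 3 libraries per group was sequenced. The labels call the libraries of a group biological replicates but do not tell whether they came from separate cultures or infections, so the p-values measure the spread between these samples, which may be technical. All levels are FPKM, fragments per kilobase of transcript scaled to the mapped fragments of each library, on the GRCh37 build.

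Securin, the product of PTTG1, binds and inhibits separase, the protease encoded by ESPL1, until the sister chromatids are to part. The anaphase-promoting complex (APC/C) with its activator CDC20 then marks securin for degradation, and the freed separase cleaves the RAD21 subunit of the cohesin ring that holds the chromatids together. PTTG1IP, the PTTG1 binding factor, is a glycoprotein that binds securin and helps to carry it into the nucleus, and both it and securin have been studied as proteins that promote tumour growth.

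HOXD9 itself had 26.6, 26.4 and 31.3 FPKM in LV-HOXD9 libraries, against a listed level of 0, 0.0413 and 0.0309 FPKM in LV-Vector libraries. The 7 epithelial markers were all measured and summed to between 1010 and 1039 FPKM in LV-HOXD9 libraries, and to between 856 and 992 FPKM in LV-Vector libraries. KRT8, KRT18 and KRT19 made up most of these sums and had higher means in LV-HOXD9 cells. EPCAM, CLDN7, CLDN4 and CDH1 had lower means there, with overlapping groups. CLDN4 averaged 1.30 FPKM in LV-HOXD9 cells and 2.19 FPKM in LV-Vector cells, and CDH1 2.41 and 2.46 FPKM. Of 12 stromal, endothelial and leukocyte markers, 3 (LYZ, CD68 and COL1A1) were in the table, and they summed to between 3.67 and 4.14 FPKM in LV-HOXD9 libraries and to between 5.16 and 6.28 FPKM in LV-Vector libraries. The gene levels summed to between 242093 and 270501 FPKM per library. Read counts were not used here, so the depth behind each value is unknown. One library of each group stood apart in how levels followed the GC content of the genes. Across 12069 genes, Spearman's rho between GC content and a library's deviation from the mean level was 0.66 for LV-HOXD9 replicate 3 and -0.60 for LV-Vector replicate 2, against -0.29 to 0.23 in the other libraries. Genes are not independent replicates, and this rho is a description.

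**Figure D1:**
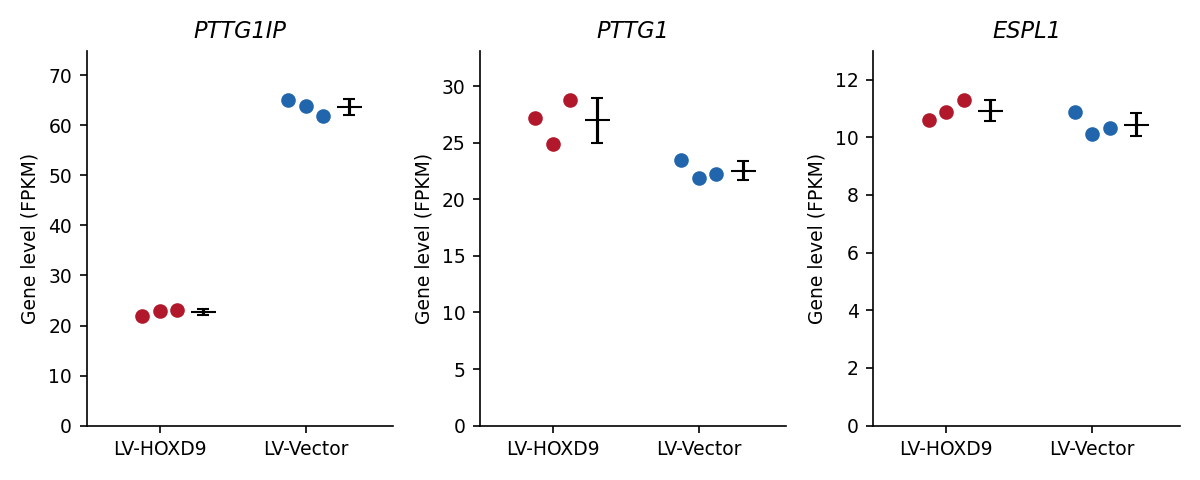
Gene levels of PTTG1IP, PTTG1 and ESPL1 in FPKM on linear axes from 0. Coloured points are the 3 libraries of each group, and black marks are the mean ± SD. The LV-HOXD9 points of PTTG1IP lie between 22.0 and 23.1 FPKM, below the LV-Vector points at 61.8 to 65.1 FPKM, while those of PTTG1 lie above the LV-Vector points and those of ESPL1 overlap with them.

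PTTG1IP (ENSG00000183255.11_2, chr21:46269500-46293818, minus strand) had 22.0, 22.8 and 23.1 FPKM in LV-HOXD9 libraries, against 65.1, 63.8 and 61.8 FPKM in LV-Vector libraries. Every LV-HOXD9 value lay below every LV-Vector value, and the libraries of a group differed little. LV-HOXD9 cells averaged 22.6 ± 0.596 FPKM and LV-Vector cells 63.6 ± 1.64 FPKM (SD, n = 3 each), a ratio of 0.356. On the log2(FPKM + 1) scale, which understates the change of low genes, the difference was -1.45 with a standard error of 0.05, the 7th lowest of the 12385 genes. Within the libraries, PTTG1IP stood at the 86.4th percentile of all genes in LV-HOXD9 cells and at the 96.4th percentile in LV-Vector cells, so it remained a well-expressed gene in both. In RNA of whole cultures, fewer cells with a transcript and less of it per cell cannot be told apart.

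PTTG1 (ENSG00000164611.12_2, chr5:159848829-159855751, plus strand), which encodes securin, had 27.2, 24.9 and 28.8 FPKM in LV-HOXD9 libraries, against 23.5, 21.9 and 22.2 FPKM in LV-Vector libraries. All 3 LV-HOXD9 values were higher than the highest LV-Vector value, but the gap between the groups was narrower than the range within either group. LV-HOXD9 cells averaged 27.0 ± 1.96 FPKM and LV-Vector cells 22.5 ± 0.837 FPKM (SD, n = 3 each). The log2 difference of 0.25 (95% interval 0.08 to 0.41) did not pass the threshold of 0.05 in limma, a linear model with moderated variances fitted over all genes, with an adjusted p of 0.180 and an unadjusted p of 0.00973. A two-sided exact permutation of the 6 libraries had p = 0.1, its lower limit with 3 in each group. PTTG1 has the near-identical copies PTTG2 and PTTG3P, which were not analysed here, and how reads shared between them were assigned is not given in the sources used here, so the PTTG1 level is uncertain to that extent.

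ESPL1 (ENSG00000135476.11_3, chr12:53662083-53687427, plus strand), the separase gene, had 10.6, 10.9 and 11.3 FPKM in LV-HOXD9 libraries, against 10.9, 10.1 and 10.3 FPKM in LV-Vector libraries. The groups overlapped, since LV-Vector replicate 1 lay among the LV-HOXD9 values. LV-HOXD9 cells averaged 10.9 ± 0.353 FPKM and LV-Vector cells 10.4 ± 0.388 FPKM (SD, n = 3 each). The log2 difference was 0.06 (95% interval -0.09 to 0.21), with an adjusted p of 0.597 in limma and p = 0.3 in the two-sided exact permutation test.

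Of PTTG1 and ESPL1, 0 of 2 passed limma at an adjusted p under 0.05, a call made for 0.202% of all genes, and neither passed with an ordinary linear model, which called 0.0969% of all genes. Before adjustment, 1 of the 2 had a p under 0.05, against 19.0% of all genes. The groups of PTTG1IP and of PTTG1 did not overlap. This was the case for 28.4% of all genes, with all LV-HOXD9 values lower for 17.5% and all higher for 10.9%.

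Because PTTG1IP was lower and PTTG1 higher in all LV-HOXD9 libraries, the balance between their RNAs was also computed within each library, where any factor common to all genes cancels. There were 0.808, 0.917 and 0.803 FPKM of PTTG1IP per FPKM of PTTG1 in LV-HOXD9 libraries, against 2.77, 2.92 and 2.78 in LV-Vector libraries. PTTG1IP RNA was thus below PTTG1 RNA in every LV-HOXD9 library and above it in every LV-Vector library, with a log2 difference of -1.75 that rests on the choice of PTTG1IP. The ratio of PTTG1 to ESPL1, the securin and separase genes, was 2.57, 2.29 and 2.55 in LV-HOXD9 libraries, against 2.16, 2.16 and 2.15 in LV-Vector libraries. This ratio was higher in 3 of 3 LV-HOXD9 libraries, by 0.19 on the log2 scale, at p = 0.1 in the two-sided exact permutation test, its lower limit here. In LV-Vector cells the ratio hardly differed between libraries, at 2.157 ± 0.00559, while it spread to 2.47 ± 0.153 in LV-HOXD9 cells (SD, n = 3 each). These ratios use gene levels, and for PTTG1 the gene level lay far below the sum of its transcript levels. That sum was 63.5, 60.3 and 68.5 FPKM in LV-HOXD9 libraries, against 52.6, 49.2 and 54.3 FPKM in LV-Vector libraries. Ratios of transcript sums were not computed, so the values and their spread hold for gene levels only.

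The 6 transcripts of PTTG1IP differ in the exons they join, and 4 of the junctions are shown because the deposited levels were estimated per transcript and such joins help to tell these RNAs apart. Each is the last 15 bases of the upstream exon in lower case and the first 15 bases of the downstream exon in capitals, 5′ to 3′ in the sense of the RNA, from the GENCODE 29 transcripts. Exons are numbered along PTTG1IP-201, and all lie on chromosome 21.
PTTG1IP-201, exon 3 to exon 4: ggggagtttgttgggTGAACTTTGAGGCGC
PTTG1IP-203, exon 3 to exon 6: ggggagtttgttgggGCCTGTTTAAAGAAG
PTTG1IP-204, exon 2 to exon 6: ctgaagaacgtctccGCCTGTTTAAAGAAG
PTTG1IP-207, its own exon to exon 2: gaggaccttcatttgCTTGTTCTCAGAACA

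PTTG1IP-201 holds exons 1 to 6, with 2760 bases in all and 540 coding bases. PTTG1IP-203 skips exons 4 and 5 and has 321 coding bases, and PTTG1IP-204 skips exons 3 to 5 and has 426. PTTG1IP-202 starts in an exon of its own and goes on with exons 3 to 6, and PTTG1IP-207, 612 bases long, has 2 exons of its own before exons 2 to 5. PTTG1IP-206 holds a further exon between exons 1 and 2. PTTG1IP-206 and PTTG1IP-207 are annotated as processed transcripts with no coding sequence.

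The full-length PTTG1IP-201 carried most of the RNA of the gene and with it the difference between the groups. It had 25.8, 25.0 and 27.1 FPKM in LV-HOXD9 libraries, against 77.0, 76.0 and 72.4 FPKM in LV-Vector libraries, a log2 difference of -1.50 given as a description. The groups lay far apart, as they did for the gene. The gene level was not the sum of the transcript levels, which for PTTG1IP came to 29.5, 37.9 and 31.5 FPKM in LV-HOXD9 libraries and to 99.7, 95.0 and 82.5 FPKM in LV-Vector libraries.

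PTTG1IP-207, without exon 1 of PTTG1IP-201, was the other transcript that reached more than a few FPKM, and it varied by library. It had 0.409, 9.19 and 0.612 FPKM in LV-HOXD9 libraries, against 19.7, 15.6 and 0.756 FPKM in LV-Vector libraries. LV-HOXD9 replicate 2 was high and LV-Vector replicate 3 was low, so the groups overlapped. Its share of the summed PTTG1IP transcripts was 1.39, 24.2 and 1.94% in LV-HOXD9 libraries, against 19.8, 16.4 and 0.917% in LV-Vector libraries, and PTTG1IP-201 took 87.3, 65.9 and 86.0% in LV-HOXD9 libraries, against 77.2, 79.9 and 87.8% in LV-Vector libraries. The libraries with a low share of PTTG1IP-201 were those with a high share of PTTG1IP-207, in both groups. This follows largely from the arithmetic, since both are parts of the same sum and the other forms were low.

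The exon-skipping forms were low throughout. PTTG1IP-204 had 1.30, 1.35 and 1.52 FPKM in LV-HOXD9 libraries, against 0.918, 1.25 and 0.987 FPKM in LV-Vector libraries. It was the only PTTG1IP transcript with all LV-HOXD9 values above the LV-Vector values, which was the case for 6.71% of all transcripts. PTTG1IP-201 and PTTG1IP-203 had all of them below, as had 8.7% of all transcripts. PTTG1IP-203 had 0.773, 0.491 and 0.596 FPKM in LV-HOXD9 libraries, against 1.01, 0.968 and 5.85 FPKM in LV-Vector libraries, with LV-Vector replicate 3 far above the rest. PTTG1IP-202 and PTTG1IP-206 were at 0.238 to 1.46 FPKM in all 6 libraries and overlapped between the groups. Without PTTG1IP-201 and PTTG1IP-207, the remaining PTTG1IP transcripts summed to 3.33, 3.73 and 3.79 FPKM in LV-HOXD9 libraries and to 2.97, 3.50 and 9.35 FPKM in LV-Vector libraries, so the groups overlapped for the sum of the minor forms.

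**Figure D2:**
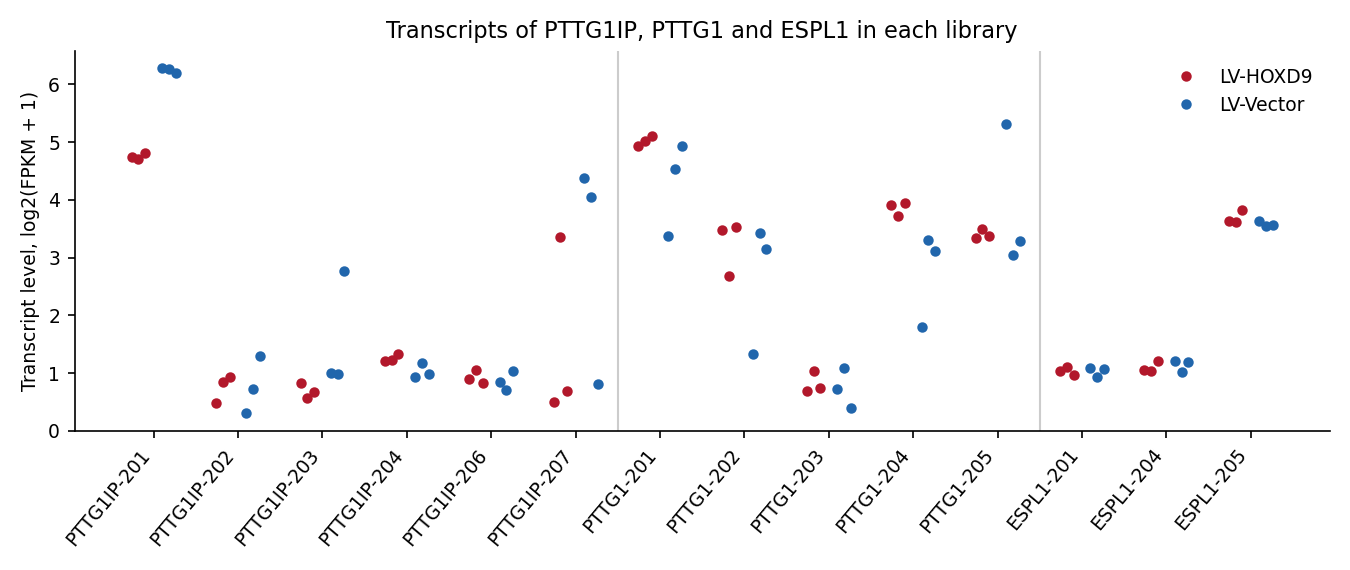
Transcript levels of PTTG1IP, PTTG1 and ESPL1 as log2(FPKM + 1), with 3 LV-HOXD9 points (red, left) and 3 LV-Vector points (blue, right) for each transcript. PTTG1IP-201 shows the widest gap between the groups, and PTTG1IP-207, PTTG1-202 and PTTG1-205 each have a library far from the others of its group.

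For PTTG1, the transcripts PTTG1-201, PTTG1-202 and PTTG1-205 share 1 coding sequence of 606 bases and differ outside it, so that they encode the same securin protein, while PTTG1-204 is annotated as a processed transcript without a reading frame. PTTG1-201 had 29.7, 31.4 and 33.4 FPKM in LV-HOXD9 libraries, against 9.34, 22.2 and 29.6 FPKM in LV-Vector libraries. PTTG1-205 had 9.13, 10.2 and 9.40 FPKM in LV-HOXD9 libraries, against 38.6, 7.25 and 8.73 FPKM in LV-Vector libraries. In LV-Vector replicate 1 the order of the levels was thus turned round, with PTTG1-205 high and PTTG1-201, PTTG1-202 and PTTG1-204 at their lowest. Whether read assignment or transcript use differed in that library was not tested. PTTG1-205 made up 73.4% of the summed PTTG1 transcripts in that library, against 13.7 to 17.0% in the other 5.

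Summed over the 3 transcripts with the same coding sequence, PTTG1 had 48.9, 47.1 and 53.4 FPKM in LV-HOXD9 libraries, against 49.4, 39.2 and 46.2 FPKM in LV-Vector libraries, and the groups overlapped. PTTG1-204 had 14.0, 12.2 and 14.4 FPKM in LV-HOXD9 libraries, against 2.49, 8.87 and 7.71 FPKM in LV-Vector libraries. All LV-HOXD9 values of this processed transcript were higher, by 1.11 on the log2 scale, at an adjusted p of 0.688 in limma, and by 0.64 without LV-Vector replicate 1. The sum over all 5 transcripts was 63.5, 60.3 and 68.5 FPKM in LV-HOXD9 libraries, against 52.6, 49.2 and 54.3 FPKM in LV-Vector libraries, so the groups did not overlap once PTTG1-204 was included. PTTG1-203 stayed between 0.321 and 1.12 FPKM and PTTG1-202 between 1.52 and 10.6 FPKM over the 6 libraries.

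ESPL1 was expressed mainly as ESPL1-205, with 11.4, 11.2 and 13.1 FPKM in LV-HOXD9 libraries, against 11.4, 10.6 and 10.9 FPKM in LV-Vector libraries. Its log2 difference of 0.11 had an adjusted p of 0.784 in limma. ESPL1-205 made up 83.6 to 85.3% of the summed ESPL1 transcripts in LV-HOXD9 libraries and 82.0 to 84.6% in LV-Vector libraries. ESPL1-201, with the same coding sequence of 6360 bases, and ESPL1-204 were each at 0.901 to 1.31 FPKM in every library. Of the 8 transcripts of PTTG1 and ESPL1, 0 passed limma at an adjusted p under 0.05, which 0.0992% of all transcripts did, and 1 (PTTG1-204) had an unadjusted p under 0.05, as had 6.98% of all transcripts. The groups of 2 of the 8 did not overlap, against 15.4% of all transcripts.

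**Figure D3:**
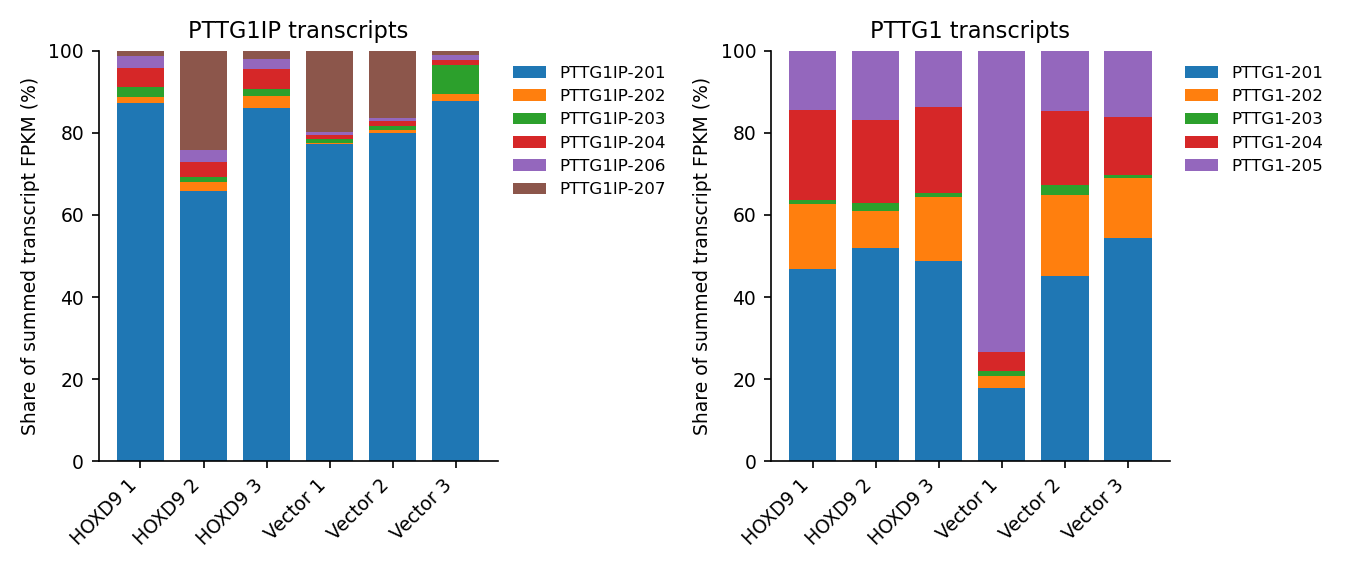
Share of each transcript, in percent of the summed transcript FPKM of PTTG1IP (left) and PTTG1 (right), in the 3 LV-HOXD9 and 3 LV-Vector libraries. PTTG1IP-207 takes 24.2% in LV-HOXD9 replicate 2 and 19.8 and 16.4% in LV-Vector replicates 1 and 2, and PTTG1-205 takes 73.4% in LV-Vector replicate 1.

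The sequence before each gene was read from the RefSeq promoter windows, 250 bases before to 50 bases after a start, on GRCh38.p14, a build used for sequence only. The stretches shown lie before every annotated start of the gene and outside other genes, and they are given because the 2 boxes searched are known from genes of the cell cycle, to which PTTG1 and ESPL1 belong. Capitals mark CCAAT, the box bound by NF-Y, and TTTGAA, the core of the cell cycle genes homology region (CHR), on either strand (ATTGG and TTCAAA on the other). Each stretch is printed 5′ to 3′ in the sense of its gene.
PTTG1IP, chr21:44873904-44873940, minus strand: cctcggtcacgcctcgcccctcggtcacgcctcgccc
PTTG1, chr5:160421712-160421821, plus strand: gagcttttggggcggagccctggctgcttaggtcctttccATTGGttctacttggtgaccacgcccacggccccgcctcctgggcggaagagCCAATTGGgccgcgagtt
ESPL1, chr12:53268049-53268298, plus strand: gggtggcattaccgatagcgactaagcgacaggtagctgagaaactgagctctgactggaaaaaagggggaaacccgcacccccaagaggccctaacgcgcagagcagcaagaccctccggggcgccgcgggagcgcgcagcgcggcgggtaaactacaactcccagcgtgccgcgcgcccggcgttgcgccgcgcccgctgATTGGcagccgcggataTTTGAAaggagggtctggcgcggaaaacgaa

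PTTG1 had 3 CCAAT matches, of which 2 overlap in CCAATTGG, and ESPL1 had 1 CCAAT match followed by 1 TTTGAA match. The whole PTTG1IP window had 0 of either. Among all 34943 windows of 300 bases, 34.65% hold CCAAT and 15.2% hold TTTGAA on either strand. The homeobox core TAAT (ATTA on the other strand) was found 0 times in the PTTG1IP window and 1 time in that of ESPL1. PTTG1 has 2 overlapping windows, of which the earlier one had 4 TAAT matches and the later one 0, and 50.31% of all windows hold at least 1. The PTTG1 stretch shown above had 0, so the 4 matches lie before it, in bases that a neighbouring gene covers. The GC content of the window was 71% for PTTG1IP and 62.67% for ESPL1, and 50.67 and 60.33% for the PTTG1 windows. These matches are letters in a window and were not tested for binding.

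To see whether the low level of PTTG1IP was shared by its surroundings, the genes near it on chromosome 21 were compared on GRCh37 coordinates. Next to it lie SUMO3, which encodes a ubiquitin-like modifier, 30.8 kb away on the one side, and AL844908.2, LINC01547 and then FAM207A on the other. SUMO3 averaged 61.4 FPKM in LV-HOXD9 cells and 54.1 FPKM in LV-Vector cells, a log2 difference of 0.18 with an adjusted p of 0.192 in limma. FAM207A, 66.1 kb away, averaged 34.7 FPKM in LV-HOXD9 cells and 25.3 FPKM in LV-Vector cells, a log2 difference of 0.46 with an adjusted p of 0.176 in limma. Both, like UBE2G2, which encodes a ubiquitin-conjugating enzyme, and AP001505.2, had all LV-HOXD9 values above the LV-Vector values, which makes 4 of the 10 neighbours, against 10.9% of all genes. The other 6 of the 10 nearest genes, LRRC3, C21orf2, PFKL, AL844908.2, LINC01547 and AP001505.1, overlapped between the groups, with log2 differences from -0.16 to 0.21.

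None of the 10 neighbours passed limma, and neither did any of the 27 other genes within 1 Mb of PTTG1IP. That call was made for 0.202% of all genes. Of the 27 genes, 9 had an unadjusted p under 0.05 in limma, against 19.0% of all genes. With the ordinary linear model, 0 of the 10 neighbours were called, against 0.0969% of all genes. At such low rates, 0 calls among so few genes say little about the region. The log2 differences of the 27 genes ran from -0.45 to 0.49 with a median of -0.06, and 3 had all LV-HOXD9 values lower and 5 all higher, against 17.5% and 10.9% of all genes. The median over the 140 genes of chromosome 21 was -0.07, against -0.04 over all genes.

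**Figure D4:**
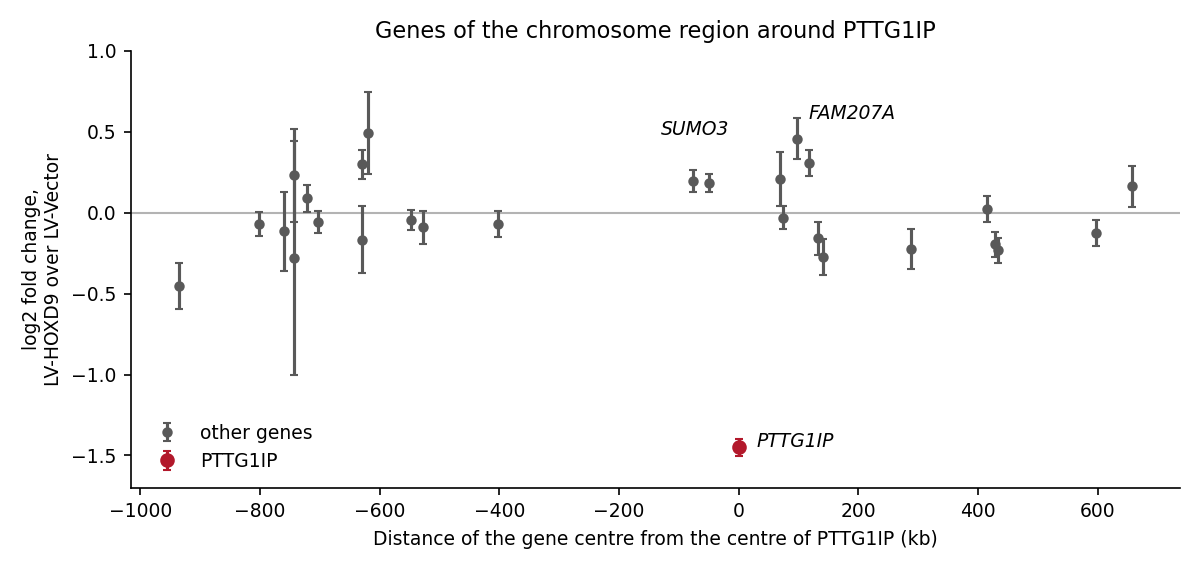
Log2 difference of LV-HOXD9 over LV-Vector libraries on the log2(FPKM + 1) scale for PTTG1IP (red) and the 27 other genes within 1 Mb (grey), against the distance between gene centres in kb. Bars are standard errors. PTTG1IP lies at -1.45, and the other genes lie between -0.45 and 0.49.

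PTTG1 begins 0.111 kb from SLU7, a splicing factor gene on the opposite strand that shares its upstream region. SLU7 averaged 4.05 FPKM in LV-HOXD9 cells and 5.26 FPKM in LV-Vector cells. All its LV-HOXD9 values were lower, with a log2 difference of -0.31, the opposite sign to PTTG1, and an adjusted p of 0.198 in limma. On the other side of PTTG1, ATP10B had a log2 difference of -0.19 with an adjusted p of 0.214. Beside ESPL1, MFSD5 had 0.04 with an adjusted p of 0.926, and PFDN5, a prefoldin subunit gene 1.65 kb away, had 0.14 with an adjusted p of 0.250.

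The genes that act on securin and separase, the cohesin they control and partners of PTTG1IP were described as 6 lists, whose 68 measured members leave out PTTG1IP, PTTG1 and ESPL1. None of the 68 passed limma at an adjusted p under 0.05, against 0.202% of all genes, made up of 0.145% lower and 0.0565% higher ones, and 0 passed with the ordinary linear model. In limma without adjustment, at a p under 0.05, 10 had lower and 12 had higher values in LV-HOXD9 cells, against 11.9% and 7.12% of all genes. All LV-HOXD9 values were lower for 8 of the 68 and higher for 15, against 17.5% and 10.9% of all genes.

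All 20 listed genes of the APC/C, which marks securin for degradation, were measured, with a median log2 difference of 0.07 against -0.04 over all genes. The list median was 0.01 on the TPM scale and 0.04 without LV-Vector replicate 1. For those alternatives the median over all genes is not given. An unadjusted p under 0.05 was found for 5 genes, all with higher values in LV-HOXD9 cells, against 7.12% of all genes. CDC20, the activator that brings securin to the complex, had 144.8, 142.9 and 148.0 FPKM in LV-HOXD9 libraries, against 117.8, 103.5 and 108.3 FPKM in LV-Vector libraries. The groups did not overlap, and the log2 difference of 0.40 had an adjusted p of 0.0753 in limma, the smallest of the 68. UBE2C and UBE2S, the ubiquitin-conjugating enzymes that work with the APC/C, had log2 differences of 0.23 and 0.38, with adjusted p of 0.147 and 0.159 in limma. ANAPC11, its catalytic RING subunit, averaged 6.26 FPKM in LV-HOXD9 cells and 3.72 FPKM in LV-Vector cells, with an adjusted p of 0.158 in limma.

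The 12 spindle checkpoint genes, which hold the APC/C back until chromosomes are attached, had a median log2 difference of -0.07. At an unadjusted p under 0.05, 2 were lower and 1 higher, against 11.9% and 7.12% of all genes. ZWILCH and KNTC1, subunits of the RZZ complex at the kinetochore, had log2 differences of -0.32 and -0.31, with adjusted p of 0.174 and 0.206 in limma. MAD2L1BP, which helps to switch the checkpoint off, had 0.19, with an adjusted p of 0.185. KNL1, a kinetochore scaffold, had -0.36 with overlapping groups and an adjusted p of 0.277.

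The cohesin core, the substrate of separase, had 6 of 9 genes in the table, all with lower means in LV-HOXD9 cells. Their median log2 difference was -0.27, against -0.04 over all genes. Of these 6 genes, 3 had an unadjusted p under 0.05, against 11.9% of all genes with lower values at that p. STAG2 averaged 10.5 FPKM in LV-HOXD9 cells and 14.9 FPKM in LV-Vector cells, a log2 difference of -0.47 with an adjusted p of 0.147 in limma. SMC3 and STAG1 had -0.38 and -0.27, with adjusted p of 0.254 and 0.261. RAD21, the subunit that separase cleaves, had -0.22 with overlapping groups and an adjusted p of 0.302. With the trends against GC content and transcript length removed from each library, the median of the cohesin core was -0.17, against 0.005 over all genes.

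Among the 12 cohesin regulators the signs were mixed, with a median of -0.13. At an unadjusted p under 0.05, 3 were lower and 2 higher, against 11.9% and 7.12% of all genes. PDS5B, which binds cohesin and takes part in its release, and NIPBL, which loads it, had log2 differences of -0.43 and -0.38, with adjusted p of 0.205 and 0.212 in limma. HASPIN, a histone kinase, and CDCA5 (sororin), which guards cohesin, had 0.20 and 0.21, with adjusted p of 0.187 and 0.188. The median was 0.03 with the GC and length trends removed, against 0.005 over all genes, so its sign rests on the scaling. The same held for the spindle checkpoint list, whose median was then also 0.03.

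Of the 14 genes of separase control, 2 were lower and 4 higher at an unadjusted p under 0.05, against 11.9% and 7.12% of all genes. The list median was 0.04, and its sign turned on the TPM scale (-0.03) and without LV-HOXD9 replicate 2 (-0.0012). The median over all genes is not given for those alternatives. PLK1, the mitotic kinase that phosphorylates cohesin, averaged 26.0 FPKM in LV-HOXD9 cells and 20.7 FPKM in LV-Vector cells, a log2 difference of 0.32 with an adjusted p of 0.110 in limma. CCNB1, the cyclin that with CDK1 inhibits separase, averaged 68.6 FPKM in LV-HOXD9 cells and 59.2 FPKM in LV-Vector cells, with an adjusted p of 0.155. The phosphatase subunit genes PPP2R5D and PPP2R5A had log2 differences of -0.57 and -0.22, with adjusted p of 0.187 and 0.206 in limma. With the GC and length trends removed, 4 of the 68 genes, CDC20, PLK1, CCNB1 and the checkpoint gene MAD2L1, passed limma as higher, against 1.45% of all genes, and 0 passed as lower, against 1.32%.

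Of the partners and targets of PTTG1IP and securin, MDM2, SP1 and CTTN had log2 differences of -0.19, -0.06 and 0.01. MDM2 encodes a ubiquitin ligase, SP1 a transcription factor and CTTN cortactin. All 3 overlapped between the groups, and the smallest of their adjusted p in limma was 0.509. Proliferation genes were set beside PTTG1 because its RNA is known to rise in dividing cells. The 12 of them had a median log2 difference of 0.10, against -0.04 over all genes. At an unadjusted p under 0.05 in limma, 5 were higher and 1 lower, against 7.12% and 11.9% of all genes. In limma and the ordinary linear model 0 were called, against 0.202% and 0.0969% of all genes. With the GC and length trends removed, TYMS and the cyclin gene CCNA2 (named after its values were seen) passed limma as higher, with adjusted p of 0.0346 and 0.0408. That call was made for 1.45% of all genes. TYMS, thymidylate synthase, averaged 52.2 FPKM in LV-HOXD9 cells and 44.2 FPKM in LV-Vector cells, a log2 difference of 0.23 with an adjusted p of 0.127 in limma. All LV-HOXD9 values were lower for 2 of the 12 genes and higher for 6, against 17.5% and 10.9% of all genes. The 2 lower ones were MCM6 and TOP2A, with log2 differences of -0.17 and -0.30. MKI67 had -0.52 with overlapping groups and an adjusted p of 0.367 in limma. The 12 genes summed to between 478 and 572 FPKM in LV-HOXD9 libraries and to between 504 and 544 FPKM in LV-Vector libraries. Their part in the PTTG1 values was not tested.

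**Figure D5:**
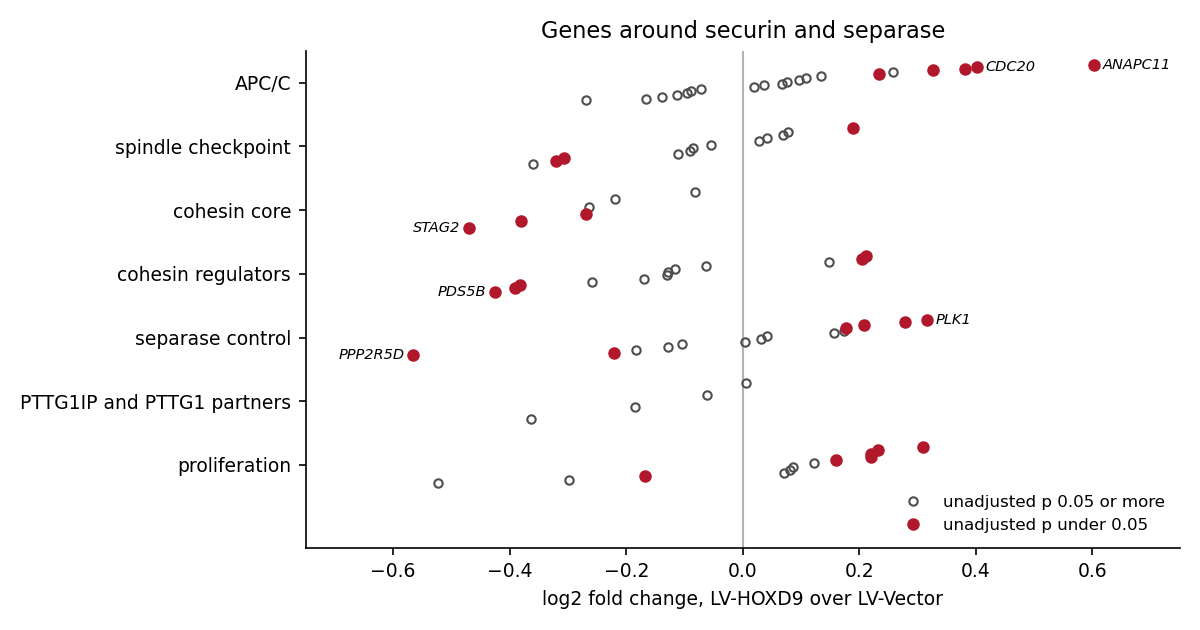
Log2 difference of LV-HOXD9 over LV-Vector libraries on the log2(FPKM + 1) scale for each measured gene of the 6 lists around securin and separase and of the proliferation list. Filled red points have an unadjusted p under 0.05 in limma, and no gene of these lists passed at an adjusted p under 0.05. The 6 cohesin core genes all lie left of 0, and CDC20 lies at 0.40.

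The protein-coding genes most like each member over the 6 libraries were named by Pearson's r of log2(FPKM + 1), as a description in which both groups and the depth of each library are shared. For PTTG1IP these were DDIT4, a stress-induced inhibitor of mTORC1 signalling, FAM173B, and FZD5, a Wnt receptor, with r of 0.995, 0.995 and 0.994. DDIT4 had 7.63, 7.97 and 7.46 FPKM in LV-HOXD9 libraries, against 47.2, 39.7 and 48.9 FPKM in LV-Vector libraries, while FZD5 averaged 11.5 FPKM in LV-HOXD9 cells and 12.3 FPKM in LV-Vector cells. A high r thus joined genes with very different sizes of change. For PTTG1 they were TRAPPC5, SDHAF1 and DNLZ, with r of 0.993 to 0.997, and SDHAF1, an assembly factor of succinate dehydrogenase, averaged 34.6 FPKM in LV-HOXD9 cells and 28.1 FPKM in LV-Vector cells. For ESPL1 they were GATAD2A, CDT1 and INTS5, with r of 0.994 to 0.998. CDT1, a factor that licenses replication origins, had 36.9, 38.9 and 43.2 FPKM in LV-HOXD9 libraries, against 38.3, 31.4 and 33.6 FPKM in LV-Vector libraries, with the same library, LV-HOXD9 replicate 3, highest as for ESPL1 and LV-Vector replicate 2 lowest. Those were the libraries whose levels followed GC content most, and the part of GC content in this likeness was not tested.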

How the data were processed

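RNA sequencing of MKN-74 cells was compared between 3 LV-HOXD9 and 3 LV-Vector libraries. The authors deposited FPKM values per gene and per transcript, made with Ballgown according to the methods of the study. The submitters' processing notes name cutadapt, FastQC, HISAT2, StringTie and GRCh37, with versions not given in the sources used here. A stranded kit was used, and whether strand was used in counting is likewise not given. The lowest of the larger group means was 0.500 FPKM, so the tables had been filtered before deposit. FPKM times transcript length of low single-transcript genes showed no clear whole-read steps, with at most 16.7% of values within 0.05 of a whole number. This is the highest over many trial step sizes. The 10% that chance gives for a single step size is therefore not its chance level. The depth could not be read from these values and is unknown.

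The log2(FPKM + 1) values were fitted over all genes, and separately over all transcripts, with limma 3.58.1 in R 4.3.3 (trended, moderated variances, no further filter, Benjamini-Hochberg adjustment, threshold 0.05), which was tested on simulated data. Ratios and single genes were compared by exact permutation tests (Python 3.11.15). Fold changes are LV-HOXD9 over LV-Vector. Alternatives were a pseudocount of 0.1, a minimum mean of 1 FPKM, a replicate block, quantile normalization, a TPM scale, an ordinary linear model, GC and length trends removed by loess (12069 genes), and leaving out each library or both libraries with strong GC trends. Sequences and exon structures came from GENCODE 29 and RefSeq.

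The members and gene lists were chosen with earlier results of these data known. Named were HOXD9, the members and their transcripts, up to 4 members of each list with the smallest p, the 5 nearest genes on each side of PTTG1IP and the nearest on each side of PTTG1 and ESPL1, and the 3 protein-coding genes with the highest correlation to each member. MAD2L1, CCNA2, MCM6, TOP2A and MKI67 were named after their values were seen. Of the partner list, 1 gene is not reported here.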

Additional observations from a re-analysis of the deposited data

How the results depend on the processing

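The direction of the PTTG1IP, PTTG1 and ESPL1 gene differences was kept in every alternative run, and PTTG1 and ESPL1 passed the threshold in none. The log2 difference of PTTG1IP was -1.54 on the TPM scale and -1.50 after quantile normalization, and -1.46 with GC and length trends removed. PTTG1 ranged from 0.18 to 0.30 with adjusted p in limma or the ordinary linear model of 0.101 to 0.395, and ESPL1 from 0.0013 to 0.087. The pathway genes called higher numbered 4 with GC and length trends removed, against 0 as reported. Over all genes, 18 were called lower and 7 higher. These counts were 30 and 4 on the TPM scale, 10 and 2 with the ordinary linear model, 159 and 175 with GC and length trends removed, 6 and 3 without both libraries of strong GC trend, and 2 to 19 and 2 to 10 when each library was left out in turn. Over all transcripts, 26 were called lower and 14 higher. These counts were 0 and 0 without both libraries of strong GC trend, 9 to 32 and 10 to 22 when each library was left out, and 13 lower with the ordinary linear model. The causes were not tested. Leaving out LV-Vector replicate 1 turned the log2 difference of PTTG1-205 to 0.24, against -0.48 with all libraries, and leaving out each library in turn gave -0.89 to 0.24.

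The labels do not tell whether the replicate numbers pair the libraries. The deviations of same-numbered libraries correlated at -0.17, 0.17 and -0.01. These deviations include the GC trends of single libraries, so they cannot decide whether the libraries are paired. With a replicate block, 2 genes were called lower and 1 higher, 0 transcripts were called lower and 0 higher, and the adjusted p in limma was 0.264 for PTTG1 and 0.673 for ESPL1.

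When each library was left out in turn, the mean share differences of PTTG1IP-201, PTTG1IP-207 and PTTG1-201 changed sign. Those of PTTG1-205 and ESPL1-205 kept their sign, with PTTG1-205 at -0.398 percentage points without LV-Vector replicate 1. The shares of PTTG1IP-204, PTTG1IP-206 and PTTG1-204 were not run in this way. With all libraries, each was higher in every LV-HOXD9 library than in any LV-Vector library. Their mean differences were 3.12, 1.83 and 8.76 percentage points. Leaving out each library in turn gave -5.65 to 5.04 percentage points for PTTG1IP-201, -10.7 to 0.721 for PTTG1IP-207, -0.631 to 17.7 for PTTG1-201, -29.7 to -0.398 for PTTG1-205 and 0.939 to 2.24 for ESPL1-205. The log2 ratio of PTTG1IP to PTTG1 then ran from -1.81 to -1.71 and that of PTTG1 to ESPL1 from 0.16 to 0.24. The median of the cohesin regulators, -0.13 as reported, was 0.0018 without both libraries of strong GC trend, and that of the spindle checkpoint genes, -0.07 as reported, was 0.05. The median of separase control ran from -0.0012 to 0.09 when each library was left out (lowest without LV-HOXD9 replicate 2, highest without LV-HOXD9 replicate 3), and that of the cohesin core was -0.14 without both libraries of strong GC trend. With unknown depth, low transcripts carry no counting interval.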
